A study of Bos taurus with 12 samples.

Results

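The miR-26 family in bovine mammary tissue was represented by 2 mature miRNAs, bta-miR-26a and bta-miR-26b. They were chosen by name, as every miRNA called bta-miR-26 with a letter suffix, and they are 2 of the 388 mature miRNAs and 3 of the 426 precursor entries analysed. Small RNAs were sequenced from mammary biopsies of 12 multiparous, healthy Chinese Holstein cows, 1 library per cow. HP and LP are cows with a high and a low milk protein percentage sampled in lactation, HD and LD are cows with a high and a low milk protein percentage sampled in the non-lactating period, and each group holds 3 libraries. The labels name no treatment, and each cow was sampled at 1 stage only, so stage was compared between animals. Directions follow the group names of the libraries. For a number of miRNAs the paper gives the opposite direction between the phenotypes. It lists miR-143, miR-16a, miR-34a, miR-152, miR-24-3p, miR-374a and miR-425-3p as lower in LP. In the deposited values each of these had a higher mean TPM in LP. miR-143 averaged 72033 TPM in HP and 125820 TPM in LP, and miR-16a 1613 and 3029 TPM. In HD vs LD it lists miR-143, miR-10a, miR-99a-5p, miR-196a, miR-24-3p and miR-374a as lower in LD, and their mean TPM was higher there. miR-152 and miR-16a are listed likewise, and their mean TPM was lower in LD. The reason for this conflict was not tested, and each direction between phenotypes below rests on the group names. A biopsy holds several cell types, and fewer cells of a type and less of a miRNA per cell cannot be told apart in these values.

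A mature miRNA guides Argonaute to messenger RNAs that pair with its seed, the bases near its 5′ end, and so lowers their translation and stability. The members of the miR-26 family share a seed and differ at a few bases elsewhere, and they are known for restraining the G1/S passage of the cell cycle and the histone methyltransferase EZH2. Their precursors lie in introns of genes for small CTD phosphatases, which act on RNA polymerase II and on the retinoblastoma pathway. In the RefSeq gene table of assembly ARS-UCD2.0, which is a later build than the one the reads were mapped to, MIR26A-1 lay within the span of CTDSPL, MIR26A-2 within CTDSP2 and MIR26B within CTDSP1. The same table names a further gene, MIR26C, in the span of CTDSPL, and its mature miRNA was not analysed here.

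Depth and tissue identity were checked first. The reads counted ranged from 6026797 to 12259867 per library in HP, from 7927748 to 13374171 in LP, from 11047701 to 23577942 in HD and from 14327050 to 21521275 in LD. A value of 3 reads equalled at most 0.498 TPM (counting error only), far below either family member. All 6 epithelial marker miRNAs (the miR-200 family and miR-205) were detected in every library, and their summed level ranged from 34301 to 44371 TPM in lactation and from 14978 to 38785 TPM in the non-lactating period. The libraries HD1 and LD1 stood apart in scaling, with size factors of 1.5 each against a range of 0.764 to 1.14 over the other 10 libraries. A size factor is the median ratio of a library's miRNAs to their means over libraries, and every normalized value below is the TPM divided by it. The phenotype comparisons and the relation of the members within a stage used factors computed over the 6 libraries of that stage. Other normalized values used factors over all 12 libraries, so HD1 had a factor of 1.36 in its stage and 1.5 over all.

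bta-miR-26a was among the most abundant miRNAs of the gland at both stages. Its level in HP was 71157, 67287 and 69614 TPM. In LP it was 78004, 78781 and 59704 TPM. The 6 lactation libraries thus spanned 59704 to 78781 TPM, with no separation between HP and LP.

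The non-lactating libraries held more of it. In HD, bta-miR-26a stood at 94708, 99718 and 108008 TPM. In LD it stood at 74832, 99711 and 107858 TPM. Of the 6 non-lactating libraries, 5 exceeded every lactation library, and LD1 alone lay within the lactation range. By mean TPM bta-miR-26a ranked 4th of 388 miRNAs in lactation and 2nd in the non-lactating period.

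bta-miR-26b was far less abundant and showed another pattern. In HP it was 7524, 4918 and 5720 TPM. In LP it was 8599, 9817 and 11326 TPM, so that every LP library lay above every HP library. In HD the values were 10457, 5703 and 9608 TPM, and in LD 7139, 8977 and 8723 TPM. The HD libraries were widely spread and overlapped each other group, whereas the LD libraries lay close together. By mean TPM bta-miR-26b ranked 22nd in HP, 15th in LP, 20th in HD and 20th in LD.

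**Figure D1:**
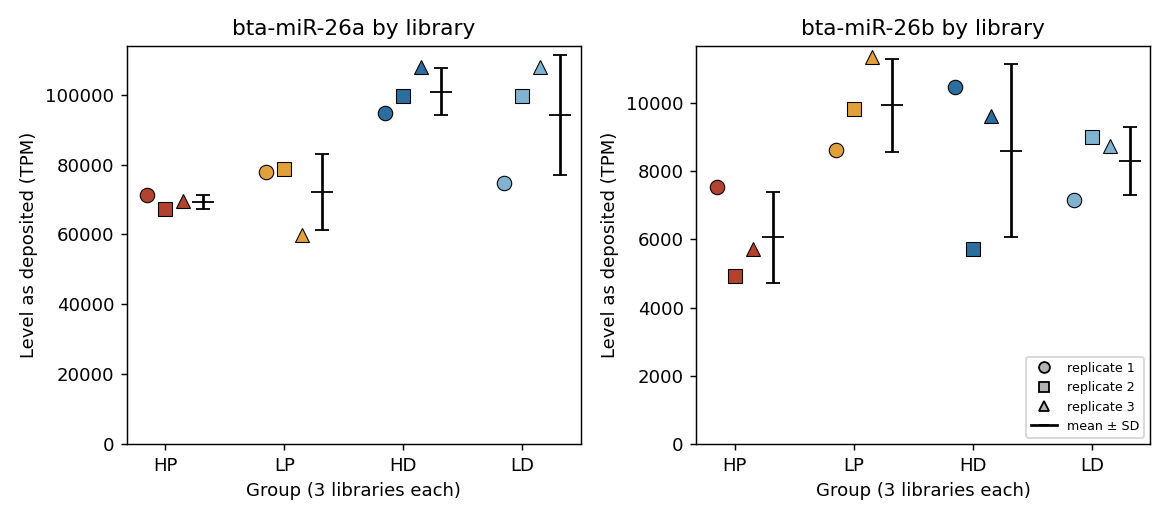
Level of bta-miR-26a (left) and bta-miR-26b (right) in TPM as deposited, with 1 point per library, the shape giving the replicate number, and bars for mean ± SD (n = 3). For bta-miR-26a, 5 of the 6 non-lactating libraries lie above the highest lactation library (78781 TPM), while for bta-miR-26b the LP libraries (8599 to 11326 TPM) lie above the HP libraries (4918 to 7524 TPM).

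Ordered by mean TPM, bta-miR-26a was highest in HD at 100811 ± 6717 TPM (SD, n = 3), followed by LD at 94134 ± 17205, LP at 72163 ± 10796 and HP at 69353 ± 1948. Every pair of neighbours in that order overlapped. The order for bta-miR-26b was LP at 9914 ± 1366 TPM, HD at 8589 ± 2535, LD at 8280 ± 996 and HP at 6054 ± 1335 (SD, n = 3), and again all neighbours overlapped. On the normalized scale LD rather than HD came first for bta-miR-26a, with means of 106660 and 89477 normalized TPM.

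The stage comparison asked whether the family differed between lactating and non-lactating glands. On the deposited scale bta-miR-26a averaged 70758 ± 7107 TPM in lactation and 97473 ± 12240 TPM in the non-lactating period (SD, n = 6). The difference of means, lactation minus non-lactating, was -26715 TPM (exact two-sided permutation test, p = 0.00649, and 0.039 after Benjamini-Hochberg adjustment over the 12 exact tests of the family). This test was added after the values were seen. Leaving out any single library gave an exact p from 0.00433 to 0.013, and without LD1 the stages did not overlap.

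The normalized values did not pass. In limma over all 12 libraries the log2 fold change of bta-miR-26a, lactation minus non-lactating, was -0.35 (SE 0.28, 95% interval -0.95 to 0.25, adjusted p = 0.325). The normalized level was 63147 in HD1 and 49886 in LD1, whereas the other 4 non-lactating libraries ranged from 89452 in HD2 to 139521 in LD3. The lactation libraries ranged from 63280 to 96914 normalized TPM. Of all 388 miRNAs, 44.3% passed an adjusted p of 0.05 in this comparison, with 86 higher and 86 lower in lactation. As deposited, without overlap between stages, stood 15.2% of miRNAs, and neither family member was among them.

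The call for bta-miR-26a therefore turned on the scaling and on single libraries. With no size factors the log2 fold change was -0.46 (adjusted p = 0.0187). Without LD1 it was -0.58 (adjusted p = 0.0338), and without both HD1 and LD1, an alternative chosen after seeing the data, it was -0.70 (adjusted p = 0.00953). With TMM factors it was -0.29 (adjusted p = 0.37). With the total counted without miR-148a and miR-143 it was -0.33 (adjusted p = 0.0794). The direction was the same under each of these settings. Of all 388 miRNAs, 138 passed with no size factors, 182 without LD1 and 181 without both HD1 and LD1.

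**Figure D2:**
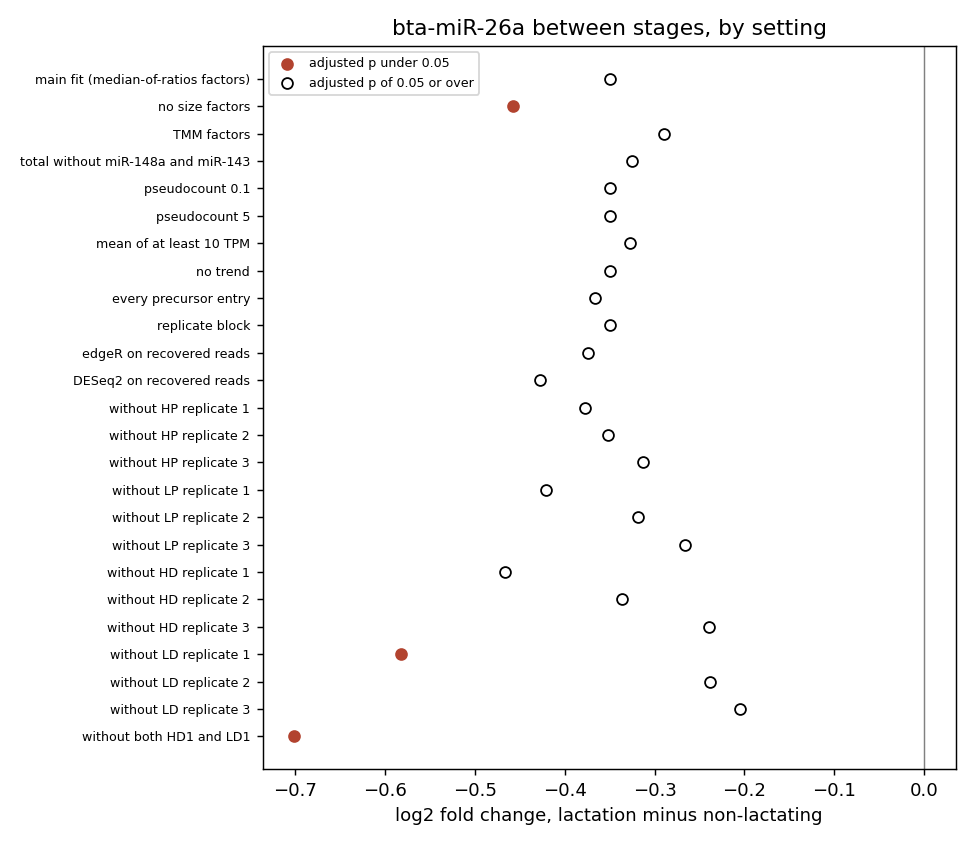
Log2 fold change of bta-miR-26a, lactation minus non-lactating (x axis), under the main limma fit and each alternative (y axis), with filled points where the adjusted p was under 0.05. All points lie below 0, and the filled ones are those with no size factors (-0.46), without LD1 (-0.58) and without both HD1 and LD1 (-0.70).

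Other measures were set side by side between stages in the same libraries, in addition to the epithelial sums given above. miR-148a, the largest entry in lactation, averaged 154416 ± 29355 TPM in lactation and 25845 ± 13789 TPM in the non-lactating period (SD, n = 6), so a share of all TPM also depends on it. The 5 leukocyte markers summed to 5146 to 8911 TPM in lactation and to 8262 to 20486 TPM in the non-lactating period, with the highest sum in LD1. The 2 endothelial markers summed to 10665 to 16528 TPM in lactation and to 4676 to 10738 TPM in the non-lactating period. The smooth muscle sum, which is nearly all miR-143, ranged from 58589 to 145006 TPM in lactation and from 79229 to 224185 TPM in the non-lactating period. No marker of these lists was at 0 in any library, and their part in the level of bta-miR-26a was not tested.

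bta-miR-26b did not separate the stages on either scale. It averaged 7984 ± 2435 TPM in lactation and 8434 ± 1731 TPM in the non-lactating period (SD, n = 6, exact two-sided permutation test, p = 0.723). Its normalized log2 fold change was -0.0018 (SE 0.27, 95% interval -0.58 to 0.58, adjusted p = 0.995). The interval still allows a change of about 0.58 in either direction.

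Within a phenotype neither member passed in the main fit, and the sign of bta-miR-26b differed between the phenotypes. For HP against HD the log2 fold change was -0.34 (SE 0.39, adjusted p = 0.562) for bta-miR-26a and -0.28 (SE 0.38, adjusted p = 0.628) for bta-miR-26b, where 31.2% of all miRNAs passed. For LP against LD it was -0.36 (SE 0.39, adjusted p = 0.548) for bta-miR-26a and 0.27 (SE 0.38, adjusted p = 0.625) for bta-miR-26b, where 22.2% passed. Without both HD1 and LD1, bta-miR-26a reached -0.83 in LP against LD (adjusted p = 0.0384), while bta-miR-26b turned to -0.14 (adjusted p = 0.791). In that fit 101 of 388 miRNAs passed. With 1 library left out, bta-miR-26a ranged from -0.84 without LD1 to -0.0888 without LD3 in LP against LD, and up to -0.11 without HD3 in HP against HD, and none of these passed. With no size factors HP against HD gave -0.54 for bta-miR-26a (adjusted p = 0.0551).

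Together the 2 members made up 8.37 to 10.9% of the TPM of all mature miRNAs in lactation and 10.4 to 15.7% in the non-lactating period, each mature miRNA counted once. The means were 9.67% ± 0.938 and 13.8% ± 1.81 (SD, n = 6, exact two-sided permutation test, p = 0.00433, adjusted over 12 tests 0.039). This test was not among those planned. The total behind the share includes miR-148a, which averaged 154416 TPM in lactation and 25845 TPM in the non-lactating period. With the total counted without miR-148a and miR-143, bta-miR-26a did not pass in limma (adjusted p = 0.0794). Nearly all of the family's share was bta-miR-26a, since bta-miR-26b supplied 5.41 to 15.9% of the family's TPM over the 12 libraries. The largest part of bta-miR-26b was in LP3.

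The comparison of HP with LP asked whether the family followed milk protein percentage in lactation. bta-miR-26b was the member that differed most between these groups. Its normalized mean was 6009 ± 1609 in HP and 10014 ± 1344 in LP (SD, n = 3), and the log2 fold change, LP minus HP, was 0.76 (SE 0.27, 95% interval 0.16 to 1.36), a 1.69-fold higher level in LP. The unadjusted limma p was 0.0175 and the adjusted p was 0.251, and 15.7% of all miRNAs had an unadjusted p under 0.05.

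To count as DE, a miRNA had to reach an unadjusted p below 0.05 together with a log2 fold change beyond 0.8 in either direction. bta-miR-26b fell short of the second condition, while 39 miRNAs met both (10.1% of 388). Of all miRNAs, 17.3% had TPM values that did not overlap between HP and LP, and 9.02% were higher in every LP library, as bta-miR-26b was. The exact two-sided permutation test of its TPM gave p = 0.1, the smallest value that 3 libraries against 3 allow.

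Leaving out single libraries changed which condition of the DE rule bta-miR-26b met. Without HP1 its log2 fold change was 0.97 (unadjusted limma p 0.00183, adjusted p = 0.0593), and without LP2 it was 0.86 (unadjusted limma p 0.0183, adjusted p = 0.237), so that it met the rule. Without HP2, HP3 or LP3 it met neither condition, with an unadjusted limma p of 0.0708, 0.0605 and 0.0661. miR-143, which makes up nearly all of the smooth muscle sum, was also apart between these groups. It ranged from 58515.5 to 84386.3 TPM in HP and from 112779.8 to 144970.5 TPM in LP. The other smooth muscle marker, miR-145, was as low as 4.57 TPM in HP and 4.56 TPM in LP and adds little to that sum. The part of miR-143 in the level of bta-miR-26b was not tested.

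bta-miR-26a was close to level between the lactation phenotypes. Its normalized mean was 68516 ± 5519 in HP and 73641 ± 17468 in LP (SD, n = 3), with a log2 fold change of 0.08 (SE 0.27, 95% interval -0.53 to 0.69, adjusted p = 0.943). The sign turned without LP1, to -0.10 (adjusted p = 0.938).

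In the non-lactating period neither member was DE between HD and LD, where 13 miRNAs were (3.35% of 388) and 7.22% of miRNAs had values that did not overlap. The log2 fold change, LD minus HD, was 0.12 (SE 0.51, 95% interval -1.07 to 1.32, adjusted p = 0.993) for bta-miR-26a and 0.22 (SE 0.46, 95% interval -0.85 to 1.30, adjusted p = 0.993) for bta-miR-26b. With no size factors the signs turned, to -0.11 and -0.01. The standard errors exceeded those of HP vs LP for both members, and these intervals include the size seen for bta-miR-26b in lactation. The paper, which used DESeq2 on its counts, lists both members as DE in HD vs LD and lower in LD. That call was not reproduced here. On reads recovered from the TPM, DESeq2 gave 0.23 for bta-miR-26a (unadjusted p 0.643) and 0.28 for bta-miR-26b (unadjusted p 0.571).

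**Figure D3:**
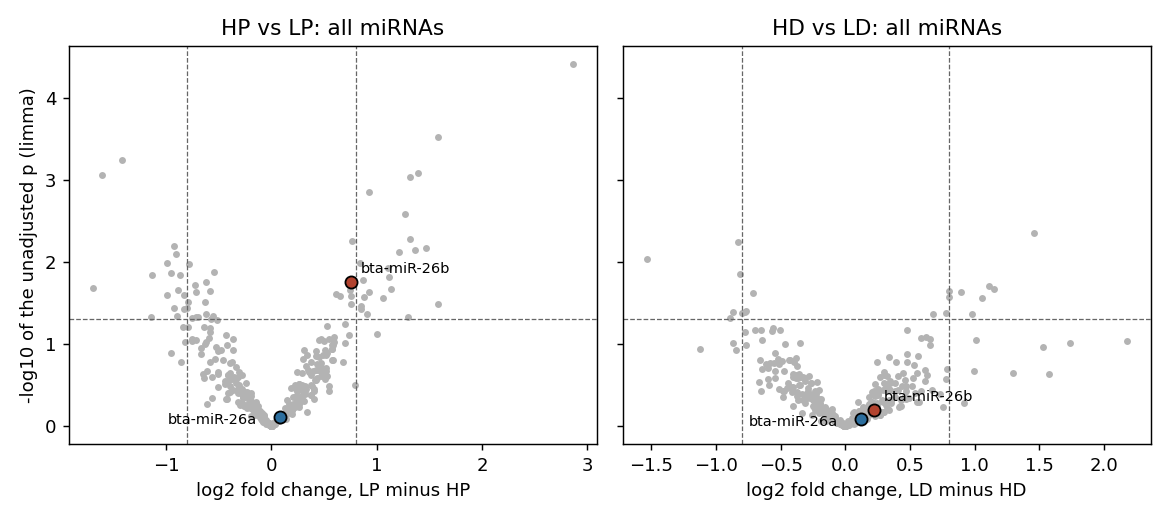
Log2 fold change (x axis) against -log10 of the unadjusted limma p (y axis) for 388 miRNAs in HP vs LP (left) and HD vs LD (right), with dashed lines at an absolute log2 fold change of 0.8 and a p of 0.05. In HP vs LP bta-miR-26b (0.76) lies above the p line and just inside the fold line, and the remaining member points lie near the origin.

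Whether the phenotype difference depended on stage was tested by the interaction term over all 12 libraries. It was 0.55 (SE 0.54, 95% interval -0.61 to 1.71, adjusted p = 0.963) for bta-miR-26b and -0.03 (SE 0.55, 95% interval -1.23 to 1.17, adjusted p = 0.993) for bta-miR-26a. For bta-miR-26b it was 0.11 without LD1, 0.26 without HD3 and 0.16 without both HD1 and LD1. A difference of the phenotype effect between stages was thus not shown for either member. In limma 0 of 388 miRNAs (0.0%) passed this test after adjustment and 20 had an unadjusted p under 0.05, while edgeR called 0 and DESeq2 called 1.

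The balance of the members is free of the scaling, since both are divided by the same factor. The ratio of bta-miR-26a to bta-miR-26b was 9.46, 13.7 and 12.2 in HP. In LP it was 9.07, 8.02 and 5.27. All LP libraries lay below all HP libraries.

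In the non-lactating groups the ratio was 9.06, 17.5 and 11.2 in HD and 10.5, 11.1 and 12.4 in LD. The mean log2 ratio, LP minus HP, was -0.68 (exact two-sided permutation test, p = 0.1, the smallest possible, and 0.3 adjusted over 12 tests). For LD minus HD it was -0.10 (exact permutation p = 0.8), and without HD2, the library with the highest ratio, it was 0.16. Lactation minus non-lactating came to -0.35 (exact permutation p = 0.177). Without LP3, the library with the lowest ratio, the LP minus HP difference was -0.45 and the stage difference -0.19, and without HD2 the stage difference was -0.23. In the order of group means, HD, HP, LD and LP, LD and LP were the neighbours that did not overlap.

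**Figure D4:**
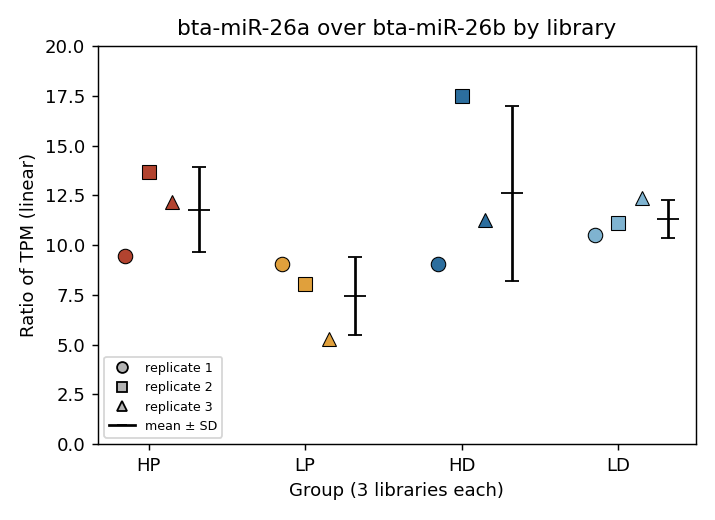
Ratio of bta-miR-26a to bta-miR-26b TPM on a linear axis, with 1 point per library and bars for mean ± SD (n = 3). The LP libraries (5.27 to 9.07) lie below those of HP (9.46 to 13.7) and LD (10.5 to 12.4), and the HD libraries span 9.06 to 17.5.

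The relation of both members across libraries was computed within each stage on log2 values, over 6 libraries, on the normalized and the deposited scale (4 relations). In the non-lactating period the normalized values gave Pearson's r = 0.86 (exact permutation p = 0.0306, adjusted 0.122) and Spearman's rho = 0.886 (exact permutation p = 0.0333, adjusted 0.133). Without HD1 and LD1, which were farthest from the median of bta-miR-26a, r was 0.962 over 4 libraries. On the deposited scale the same libraries gave r = 0.307 (exact permutation p = 0.533) and rho = 0.0857 (exact permutation p = 0.919), and r = -0.189 without HD3 and LD1. Dividing both members by 1 size factor per library links them, and the relation was seen on the normalized scale only.

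In lactation the normalized values gave r = 0.262 (exact permutation p = 0.656) and rho = 0.0286 (exact permutation p = 1). Without LP1 and LP3 r was 0.662. On the deposited scale r was -0.00953 (exact permutation p = 0.992) and rho 0.143 (exact permutation p = 0.803), and r was 0.913 without LP2 and LP3. None of the 4 relations passed after adjustment.

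**Figure D5:**
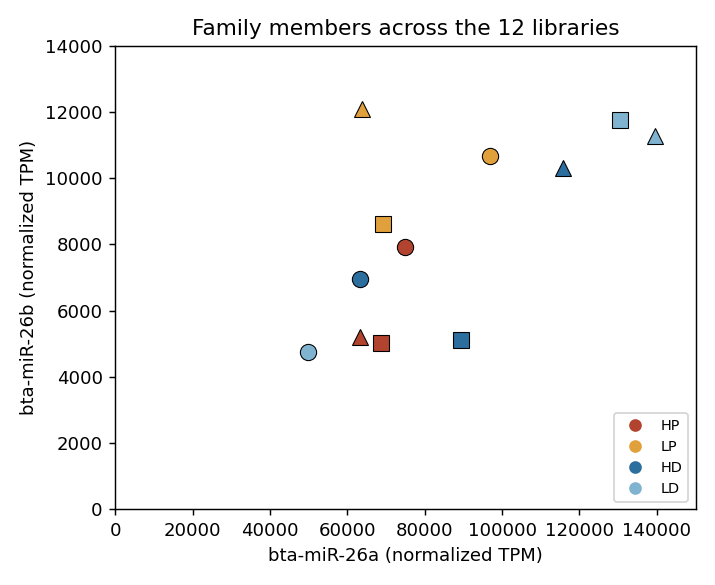
bta-miR-26a (x axis) against bta-miR-26b (y axis) in normalized TPM, with 1 point per library, the colour giving the group and the shape the replicate number. The points of HD1 and LD1 (63147 and 49886 for bta-miR-26a) lie to the left of the other non-lactating libraries, and LP lies above HP for bta-miR-26b.

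bta-miR-26a comes from 2 precursors, and their entries were almost equal in every library. The entry of precursor 26a-2, the one used above, exceeded that of 26a-1 by 12.2 to 44.1 TPM in all 12 libraries, which is 0.0113 to 0.0565% of the 26a-1 value or 155 to 734 reads. Of the 36 miRNAs with several entries, 12 had entries that differed by a smaller percentage, and the median was 0.76%. The widest difference was 117%, for miR-196a, whose higher entry was used below. Reads that match both precursors cannot be assigned to 1 of them, so the output of CTDSPL and CTDSP2 cannot be told apart from these values. How reads matching both bta-miR-26a and bta-miR-26b were counted is not given in the sources used here.

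The miRNAs most like each member over the 12 libraries were different ones. The measure was Pearson's r of log2(normalized TPM + 1) among the 234 miRNAs with a mean of at least 10 TPM. It is a description, since the points share a library's scaling and the stage difference. For bta-miR-26a they were miR-196a (r = 0.941), miR-140 (0.927), miR-99a-5p (0.87), miR-10a (0.861) and miR-10174-3p (0.853), against a median r of 0.0747. Within lactation alone r was 0.875 for miR-196a, 0.595 for miR-140, 0.27 for miR-99a-5p, -0.00965 for miR-10a and 0.186 for miR-10174-3p, and within the non-lactating period it was 0.922 to 0.994. On the deposited scale, over 12 libraries, r ranged from 0.675 for miR-10174-3p to 0.858 for miR-196a. miR-196a and miR-10a are encoded within the HOX gene clusters, and miR-140 is known from cartilage.

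For bta-miR-26b the nearest were miR-152 (r = 0.955), miR-16a (0.922), miR-24-3p (0.92), miR-374a (0.883) and miR-425-3p (0.878), against a median r of 0.0752. Within lactation alone these 5 had an r of 0.864 to 0.993, with 0.95 for miR-152 and 0.937 for miR-16a, and within the non-lactating period 0.79 to 0.976. On the deposited scale, over 12 libraries, r ranged from 0.743 for miR-374a to 0.932 for miR-16a, with 0.9 for miR-152. miR-152, a relative of miR-148a, ranged from 217 to 483 TPM in HP and from 489 to 582 TPM in LP, while the paper lists it as lower in LP. Of all miRNAs, 17.3% did not overlap between these groups, and 9.02% were higher in every LP library. bta-miR-26a was the 14th nearest to bta-miR-26b (r = 0.631), and bta-miR-26b the 33rd nearest to bta-miR-26a. On the deposited scale the r of this pair was 0.2.

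Other miRNA families known to restrain the cell cycle or EZH2 were described beside the family, as a list of 24 of which 23 were in the table (the let-7, miR-15, miR-34, miR-101 and miR-29 families). In HP vs LP, 2 of the 23 were DE and both were higher in LP, where 10.1% of all 388 miRNAs were DE, 23 of them higher in LP. miR-34a, a p53 target that arrests the cell cycle, was 59.1 ± 6.73 TPM in HP and 151 ± 48.8 TPM in LP (SD, n = 3), with a log2 fold change of 1.32 (SE 0.28, adjusted p = 0.0599). miR-16a, which targets G1 cyclins, ranged from 860 to 2848 TPM in HP and from 2884 to 3208 TPM in LP, with a log2 fold change of 1.14 (SE 0.42, adjusted p = 0.251). The list's median log2 fold change was 0.04 beside -0.01 over all 388 miRNAs.

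In HD vs LD 1 of the 23 was DE, beside 3.35% of all miRNAs. It was let-7e, at a log2 fold change of -0.81 (SE 0.26, adjusted p = 0.935). Its mean was 1558 ± 377 TPM in HD and 798 ± 409 TPM in LD (SD, n = 3). The median of the list was 0.08 beside 0.03 over all miRNAs. In the interaction test 0 of the 23 passed, with a list median of -0.02 beside -0.04.

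Between stages 8 of the 23 passed an adjusted p of 0.05, 4 higher and 4 lower in lactation, beside 44.3% of all miRNAs, 86 higher and 86 lower, with a list median of 0.09 beside -0.01. miR-29c, of a family known for restraining collagen genes, averaged 1962 ± 858 TPM in lactation and 380 ± 129 TPM in the non-lactating period (SD, n = 6), with a log2 fold change of 2.41 (adjusted p = 5.41e-05). miR-29b was higher in lactation by 1.69 on the log2 scale (adjusted p = 0.000146) and miR-15a by 0.79 (adjusted p = 0.00208), and miR-15b was lower there, at -0.99 (adjusted p = 0.00328). The list moved in both directions, and bta-miR-26a at -0.35 and bta-miR-26b at -0.0018 lay between these values. Of the 23, 9 passed for HP against HD (5 higher and 4 lower in HP), beside 31.2% of all miRNAs, and 3 for LP against LD (2 higher and 1 lower in LP), beside 22.2%.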

How the data were processed

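Small RNA was measured in 12 mammary libraries, 3 in each of 4 groups named in their labels. The authors trimmed reads with Cutadapt and Trimmomatic, kept short reads, mapped them with Bowtie to the bovine genome, counted miRBase miRNAs with miRDeep2 and deposited RPM values, which they call TPM. No length correction enters, and the libraries sum to nearly the same total. Of the deposited table, 0 library columns were left unused.

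For each mature miRNA the precursor entry with the highest mean was kept. Scaling used median-of-ratios size factors (0.764 to 1.5 over the 12 libraries), and log2(scaled TPM + 1) was analysed. limma 3.58.1 (R 4.3.3) with a mean-variance trend was fitted over the 6 libraries of a stage for either phenotype comparison, and over all 12 otherwise, with Benjamini-Hochberg adjustment over 388 miRNAs. Nothing was filtered. Where limma is named, the p-values measure the spread between libraries of different cows. Single values were tested by exact two-sided permutation (scipy 1.17.1), where 3 libraries against 3 cannot give a p under 0.1.

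Low values are whole multiples of 1 step per library, so reads were recovered. At least 99.8% of values were whole within 0.0055 TPM. On these reads edgeR 4.0.16 and DESeq2 1.42.0 called 49 and 48 miRNAs DE between HP and LP, 17 and 15 between HD and LD, and 164 and 177 by adjusted p between stages. The fits were tested on simulated data with 200 of 388 miRNAs changed. A log2 change of 1 was recovered for 58% of these in HP vs LP, 44% in HD vs LD and 77.5% between stages. A log2 change of 2 was recovered for 90%, 92% and 99%. Smaller changes, such as those of the family, were not simulated.

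The text names the family, the 5 miRNAs most like each member with a mean of at least 10 TPM, miR-148a and miR-143 where a share turns on them, and at most 4 called members of the cell cycle list per test. The members and lists were chosen with earlier results of these data known. Of the marker lists, miR-206 was not in the table, and of the cell cycle list miR-424-5p was not. The red blood cell markers summed to 413 to 6127 TPM and the skeletal muscle markers to 89.1 to 726 TPM over the 12 libraries. Alternatives were other scalings, both count tools, leaving out libraries, a replicate block, a single fit over 12 libraries for the phenotype comparisons, all precursor entries, a minimum mean of 10 TPM, no trend in limma, and pseudocounts of 0.1 and 5. Messenger RNA and predicted targets were not analysed here.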

Additional observations from a re-analysis of the deposited data

Results flagged for a closer look

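In lactation 1 library lay far from the others of its stage. LP1 held 96914 normalized TPM of bta-miR-26a, while the other 5 lactation libraries ranged from 63280 to 75014, and its gap to the nearest exceeded Dixon's 95% critical value for 6 libraries. As deposited, LP1 held 78004 TPM, within the range of the stage, and its size factor was 0.805. Chance gives about 1 such library in 20 groups, and 12 sets of 6 libraries were examined.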

How the results depend on the processing

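Most differences of the family were smaller than their errors, so signs turned without any call. For bta-miR-26a in HP vs LP the log2 fold change ranged from -0.10 to 0.23 with 1 library left out, and for bta-miR-26b from 0.64 to 0.97. In HD vs LD the values for bta-miR-26a were -0.11 with no size factors and -0.0732 with the total counted without miR-148a and miR-143, and -0.15 to 0.63 with 1 library left out. For bta-miR-26b they were -0.0118 with no size factors and -0.0209 to 0.68. Between stages bta-miR-26a was -0.46 with no size factors (the same on log2 TPM by exact permutation) and -0.70 without both HD1 and LD1, and -0.58 to -0.20 with 1 library left out. bta-miR-26b was 0.0579 with TMM factors, 0.0224 without the 2 largest miRNAs in the total and 0.0206 at a mean of at least 10 TPM, and -0.21 to 0.14 with 1 library left out. The interaction of bta-miR-26a was 0.16 with no size factors, 0.0942 with TMM, 0.18 without the 2 largest, 0.0184 in edgeR, and -0.52 to 0.23 with 1 library left out, and that of bta-miR-26b 0.11 to 0.76. In HP against HD bta-miR-26a ranged from -0.58 to -0.11 with 1 library left out, and in LP against LD from -0.84 to -0.0888. In HP against HD bta-miR-26b ranged from -0.50 to 0.0076, and in LP against LD from -0.15 to 0.49 and was -0.14 without both HD1 and LD1, where bta-miR-26a was -0.83. The log2 ratio of the members ranged from -0.84 to -0.45 in HP vs LP, from -0.31 to 0.16 in HD vs LD and from -0.46 to -0.19 between stages. The cause of these shifts was not tested.

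Counts of called miRNAs moved more. In HP vs LP 39 miRNAs were DE, against 22 with a pseudocount of 5 and 24 to 53 with 1 library left out (24 without LP1). In HD vs LD 13 were DE, against 3 with no size factors, 4 without the 2 largest, 7 with a pseudocount of 5, 8 at a mean of at least 10 TPM and 22 without both HD1 and LD1, and 6 (without HD2) to 36 (without LD1) with 1 library left out, with 8 without LD2. Between stages 172 passed, against 114 at a mean of at least 10 TPM, where fewer miRNAs were tested. The interaction gave 0, and 1 in DESeq2.

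Same-numbered libraries came from different cows. Their deviations from the group means correlated at -0.20, -0.26 and 0.01 for HP and LP and at 0.55, -0.11 and 0.50 for HD and LD, and 0 of 6 and 4 of 6 libraries correlated best with their own number. With the replicate block 34 miRNAs were DE between HP and LP and 17 between HD and LD, bta-miR-26b stayed at 0.76 in HP vs LP (adjusted p = 0.359), and no call of a family member changed.

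Every library held at least 428850 reads of bta-miR-26a and 45344 of bta-miR-26b, so counting error was small beside the spread between libraries.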
